A study of Monodelphis domestica with 8 samples.

Results

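Acetylated regions without a called H3K4me3 peak made up 10% of the H3K9Ac list on the autosomes of the opossum fetal brain. They were chosen as the H3K9Ac peaks on chromosomes 1 to 8 that shared not even 1 bp with any peak of the H3K4me3 list, which left 1186 of 11858 autosomal H3K9Ac peaks (exact 95% interval 9.47% to 10.6%) and 1186 of 12157 in the whole list. They are called H3K4me3-free peaks here, and the other 10672 autosomal H3K9Ac peaks are called H3K4me3-overlapping peaks. The members were chosen by the measured H3K4me3 calls, so their separation from H3K4me3 is a description and not a finding.

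The peaks come from chromatin immunoprecipitation and sequencing (ChIP-seq) of brain taken at embryonic day 13 from female fetuses of the gray short-tailed opossum (Monodelphis domestica), a laboratory marsupial, with antibodies against 4 histone modifications. There were 2 libraries for each antibody and 8 in all, each library from the pooled brain tissue of 2 sister fetuses, 1 pool from an LL2 mother crossed with an LL2 father and the other from an LL1 mother crossed with an LL2 father. Chromatin was cut with micrococcal nuclease, which leaves nucleosome fragments, and the chromatin of a pool was shared among the antibodies. Whole brain holds many cell types, and a peak does not say in which of them the mark was present. The 2 libraries of an antibody share a single peak list, and each peak has 1 value. No replicate error can be given and no test between samples is possible. The 95% intervals cover the counting or ranking of peaks only and treat peaks as independent, although neighbouring peaks share their surroundings.

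H3K9Ac is acetylation of lysine on the tail of histone H3, laid down by acetyltransferases that are recruited to active regulatory DNA. It is best known at active promoters, where it lies together with H3K4me3, and it also occurs at enhancers, where H3K4me1 is the usual methylation mark and H3K4me3 is low or absent. H3K27me3 is deposited by Polycomb repressive complex 2 and marks silent developmental genes, and H3K9me3 marks constitutive heterochromatin. H3K4me1 was not among the marks profiled here, so promoters and enhancers cannot be told apart from these lists. Positions are those of the deposited lists, counted from 1. Their genome build is not given in the labels or files used here, and no sequence or gene annotation in those coordinates was used. Peaks are therefore identified by coordinates, without gene names.

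The H3K4me3-free peaks were weak members of the H3K9Ac list. Their median peak score, the value the authors' peak caller gave each peak, was 59.7 (95% interval 59.1 to 60.3), and that of the H3K4me3-overlapping peaks was 90.8 (89.3 to 92.1). The lowest score in the list was 50.01, so the typical H3K4me3-free peak lay close to the lowest score reported. The quartiles of their score were 54.2 and 68.4, against 62.8 and 140.5 for the H3K4me3-overlapping peaks. Both classes therefore shared the low range of scores, and the high range belonged mostly to the H3K4me3-overlapping class. A score of 100 or more was reached by 59 H3K4me3-free peaks (4.97%) and by 4674 H3K4me3-overlapping peaks (43.8%). A score of 200 or more was reached by 2 H3K4me3-free peaks and by 1255 H3K4me3-overlapping peaks.

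The share of H3K9Ac peaks that were H3K4me3-free was lower at higher scores. When the 11858 peaks were divided into 10 equal classes of score, 23.0% of the lowest class (274 of 1189 peaks, interval 20.7% to 25.5%) lacked an H3K4me3 peak. The next 2 classes, up to a score of 63.59, had 20.9% and 20.98%. The share was then 14.1%, 10.1% and 5.82% in the 3 classes that follow, and 2 of 1186 peaks (0.169%, 0.0204% to 0.608%) in the highest class, which starts at 204.4. The 3 lowest classes had overlapping intervals, and in the next 4 classes each interval lay below that of the class before it. In all, 1058 of the 1186 H3K4me3-free peaks (89.2%) scored under the median of all autosomal H3K9Ac peaks, 84.52. Of the 5929 peaks at or above that median, 128 were H3K4me3-free (2.16%).

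**Figure D1:**
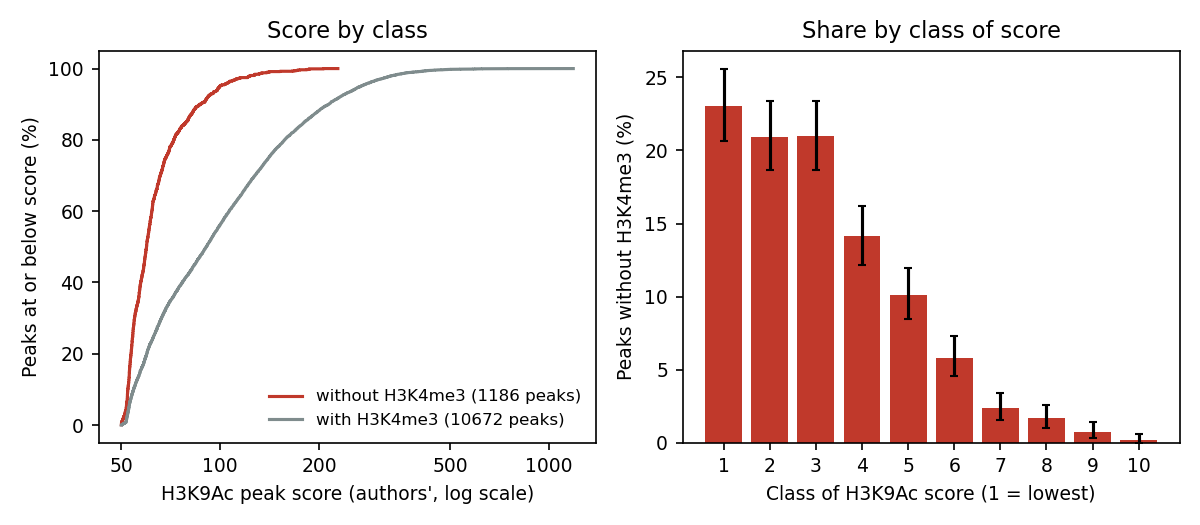
Left, the cumulative share of autosomal H3K9Ac peaks (y axis, percent) at or below each authors' peak score (x axis, log scale), for the 1186 peaks without H3K4me3 (red) and the 10672 with it (grey). Right, the percentage of peaks without H3K4me3 in each of 10 equal classes of the H3K9Ac score, with exact 95% intervals of counting, which goes from 23.0% in the lowest class to 0.169% in the highest.

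The same order was seen on each of the 8 autosomes. The median score of the H3K4me3-free peaks lay between 59.0 (chromosome 5) and 62.2 (chromosome 7), and that of the H3K4me3-overlapping peaks between 83.9 (chromosome 5) and 94.0 (chromosome 4), so the ranges of the 2 classes over chromosomes did not meet. H3K4me3-free peaks made up between 8.20% of the H3K9Ac peaks (chromosome 4, 128 of 1561, interval 6.89% to 9.67%) and 11.1% (chromosome 6, 127 of 1141, 9.36% to 13.1%). These 2 intervals overlapped, while that of chromosome 1 (10.9%, 319 of 2925, 9.80% to 12.1%) lay above that of chromosome 4. Per Mb of chromosome the density ran from 0.233 on chromosome 5 to 0.436 on chromosome 6. Within 10 Mb of a chromosome end, taken at the outermost peak of any list, there were 68 H3K4me3-free peaks among 515 H3K9Ac peaks (13.2%). The counts on chromosomes 1 to 4 were 5 of 38, 19 of 69, 4 of 65 and 12 of 134. On chromosomes 5 to 8 they were 4 of 58, 12 of 66, 4 of 33 and 8 of 52. Chromosome 2 held the most of the 68, and no intervals were computed for these counts.

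**Figure D2:**
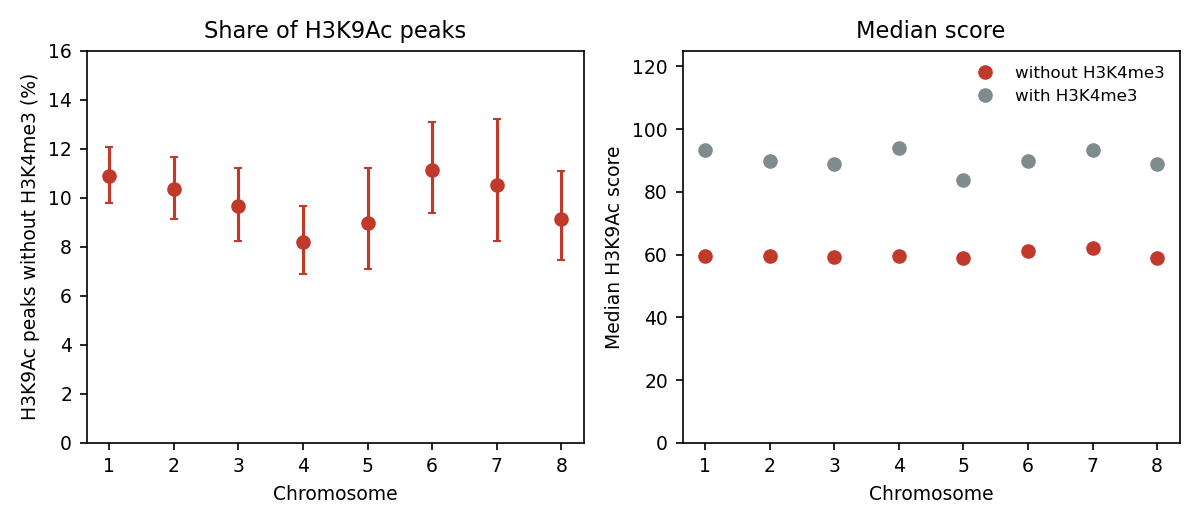
Left, the percentage of H3K9Ac peaks without H3K4me3 on each autosome (points, with exact 95% intervals of counting), between 8.20% and 11.1%. Right, the median H3K9Ac score of the peaks without (red) and with (grey) H3K4me3 on each autosome, where the red points lie between 59.0 and 62.2 and the grey points between 83.9 and 94.0.

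H3K4me3-free peaks were narrower than the others over the whole list, but not at every level of score. Their median width was 790 bp (785 to 794 bp) against 1068 bp (1055 to 1081 bp) for the H3K4me3-overlapping peaks. The range of 740 to 800 bp alone held 36.6% of the H3K4me3-free peaks and 14.8% of the others, and only 14 H3K4me3-free peaks (1.18%) were 1500 bp or wider, against 2270 (21.3%). A wide peak has more room to touch an H3K4me3 peak, so the rule itself favours narrow ones. Width moved with score. In the lowest 3 classes of score the median widths without and with H3K4me3 were 780 and 782 bp, 749 and 749 bp, and 790 and 794 bp. In the next 2 classes they were 828 and 849.5 bp, and 853.5 and 954 bp. The order was the other way in the 2 classes above these, with 1150 and 1098 bp, and 1297 and 1238 bp, from 69 and 28 H3K4me3-free peaks. In classes 8 to 10 the H3K4me3-free peaks were again narrower, with 1266 and 1365 bp, 1450 and 1580 bp, and 1592.5 and 1978.5 bp. These rest on 20, 9 and 2 H3K4me3-free peaks. The mean width was 850.6 bp for the H3K4me3-free peaks and 1194 bp for the others, and 873 bp for the others when they were weighted to the scores of the H3K4me3-free peaks.

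The 59 H3K4me3-free peaks with a score of 100 or more were spread over 7 autosomes with 4 to 16 on each. They were wider than the rest, at a similar distance from H3K4me3. Their median width was 1315 bp (1212 to 1380 bp), against 788 bp for the 1127 below that score. Their median distance to H3K4me3 was 28.7 kb (16.5 to 77.2 kb), and that of the lower-scoring ones 28.8 kb (25.7 to 32.0 kb), with overlapping intervals. The highest score of all, 227.89, belonged to a peak of 1723 bp at chr6:199565391-199567113, which lay 130.3 kb from the nearest H3K4me3 peak and 43.3 kb from the nearest other H3K9Ac peak. The next, at chr2:154996426-154997887 (score 206.13), lay only 232 bp from an H3K4me3 peak that scored 75.6 in its own list. The third, at chr2:64665412-64667007 (186.67), had an H3K4me3 peak of score 53.4 at 2.81 kb. In these examples high H3K9Ac scores lay both far from H3K4me3 and beside low-scoring H3K4me3 peaks.

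The peak that followed in score, at chr6:98393101-98393491, combined a score of 186.31 with a width of 391 bp. It was 1 of 5 H3K4me3-free peaks narrower than 500 bp (0.422%, 0.137% to 0.981%). There were 19 such peaks among the 10672 H3K4me3-overlapping ones (0.178%, 0.107% to 0.278%), and the group was picked out after these values were seen. The other 4 were at chr8:127959390-127959888 (score 131.43), chr3:478411247-478411624 (121.08), chromosome 3 from -148 to 262 (102.8) and chr4:84334007-84334495 (91.46). They lay between 23.6 and 406.5 kb from H3K4me3, and 4 of the 5 scored 100 or more, as did 8 of the 19, a level at which the median width of H3K4me3-free peaks was 1315 bp. The start of the peak at the tip of chromosome 3 lies before the first base, as deposited.

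The widest H3K4me3-free peak, 2307 bp at chr1:455041055-455043361, was also among the 5 strongest (183.37) and lay 289 bp from an H3K4me3 peak of score 150.5. The next 4 in width, at chr1:57381099-57383336 (2238 bp, score 134.46), chr5:249507804-249509832 (2029 bp, 83.25), chr4:225887356-225889292 (1937 bp, 152.05) and chr6:156863563-156865496 (1934 bp, 168.21), had H3K4me3 peaks at 3397, 19080, 3042 and 7501 bp, in that order. The H3K4me3 scores there were 71.1, 55.9, 73.7 and 230.6, all below the autosomal median for that list, 344.3.

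Most H3K4me3-free peaks were not edges of an H3K4me3 peak. The median distance to the nearest H3K4me3 peak was 28.8 kb (25.5 to 32.0 kb), with quartiles of 8.09 and 80.2 kb, a shortest distance of 2 bp and a longest of 1630 kb. Of the 1186 peaks, 46 (3.88%) lay less than 500 bp away, 82 (6.91%) less than 1 kb and 220 (18.5%) less than 5 kb. A further 554 (46.7%) lay at 5 to 50 kb and 412 (34.7%) at 50 kb or more. Score and width varied little with distance, with median scores between 58.7 and 62.8 and median widths between 760 and 796.5 bp over 7 classes of distance.

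**Figure D3:**
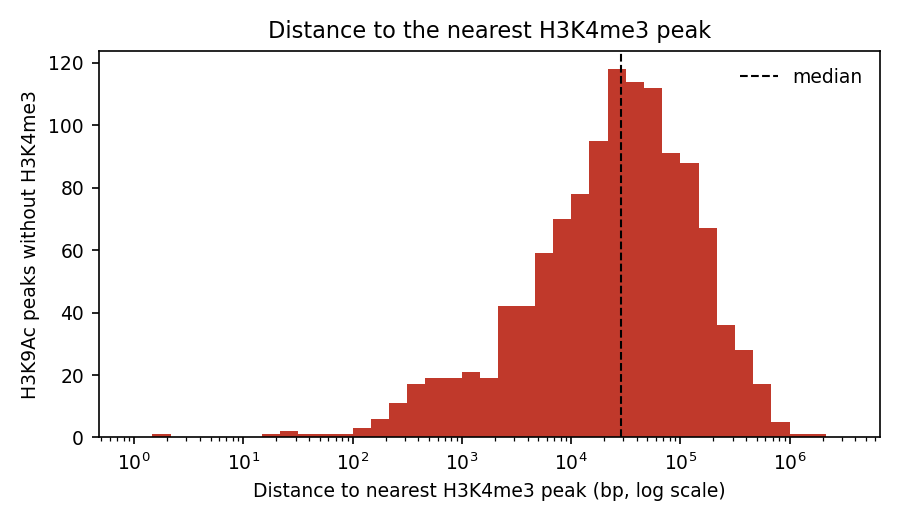
Number of H3K9Ac peaks without H3K4me3 (y axis) by distance to the nearest H3K4me3 peak (x axis, bp, log scale). The dashed line is the median, 28.8 kb, and 220 of the 1186 peaks lie under 5 kb.

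At the boundary of the rule, the 5 H3K4me3-free peaks closest to H3K4me3 were separated from it by 2, 19, 30, 31 and 33 bp and scored between 52.3 and 71.5. The 5 H3K9Ac peaks with the smallest overlap shared 4, 5, 27, 39 and 40 bp with H3K4me3 and scored between 51.8 and 190.4. At the other extreme, the peak farthest from H3K4me3 (1630 kb), at chr2:314042392-314043160, scored 53.38 and lay 1277 kb from the nearest other H3K9Ac peak. The next, at chr2:180230485-180231258, scored 50.58 and lay 1278 kb from H3K4me3. Then came chr1:43102081-43102862 (877 kb, score 50.14), chr7:50228380-50229336 (808 kb, 65.27) and chr2:379767126-379767907 (765 kb, 60.25). Their scores lay on both sides of the median of the class, 59.7.

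The 1186 H3K4me3-free peaks had 1070 distinct nearest H3K4me3 peaks, which were weaker than the other 21016 on the autosomes. Their median H3K4me3 score was 244.2 (218.5 to 282.5) against 349.5 (339.9 to 359.7), and their median width was 1828.5 bp (1742 to 1935 bp) against 2036.5 bp (2014 to 2056 bp). The H3K4me3 list also decided membership, and a wide H3K4me3 peak has more room to overlap a nearby H3K9Ac peak. The comparison is therefore a description only. For the 46 H3K4me3-free peaks less than 500 bp away, the median score of the neighbouring H3K4me3 peak was 110.5, and for the 243 at 100 kb or more it was 258.6. Counted per H3K9Ac peak, the H3K4me3 peak under an H3K4me3-overlapping peak had a median score of 875.8, and of 695.0 where the H3K9Ac score was under 84.52. Of the 1070 nearest H3K4me3 peaks, 490 (45.8%, 42.8% to 48.8%) themselves overlapped an H3K9Ac peak, compared with 8867 of the other 21016 (42.2%, 41.5% to 42.9%). This difference is small, and it was not tested.

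The number of H3K4me3-free peaks depends on how low the H3K4me3 list reaches. With only the top-scoring 50% of autosomal H3K4me3 peaks, 3066 H3K9Ac peaks (25.9%) had no H3K4me3 overlap, and their median distance to it was 62939.5 bp. The deposited H3K4me3 list ends at a score of 50.01, and H3K4me3 below that level would not be seen in it.

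Few autosomal H3K9Ac peaks of either class carried a Polycomb or heterochromatin mark. Both marks covered more of the sequence of the H3K4me3-free peaks than of the autosomes in general, as they also did in the H3K4me3-overlapping peaks. Of the 1186 H3K4me3-free peaks, 1161 (97.9%, 96.9% to 98.6%) overlapped neither H3K27me3 nor H3K9me3. Neither mark was met by 10119 of the 10672 H3K4me3-overlapping peaks (94.8%, 94.4% to 95.2%). H3K27me3 lay on 1.54% of the bases of the H3K4me3-free peaks, on 2.88% of those of the H3K4me3-overlapping peaks and on 0.546% of the autosomes. For H3K9me3 these values were 0.247%, 0.170% and 0.0215%, the first of them from only 4 H3K9Ac peaks. Chromosome lengths were taken between the outermost peaks. H3K27me3 was met by 23 (1.94%, 1.23% to 2.90%), against 531 H3K4me3-overlapping peaks (4.98%, 4.57% to 5.41%). Among peaks scoring under 84.52 the shares were 1.98% (21 of 1058, 1.23% to 3.02%) and 7.62% (371 of 4871, 6.89% to 8.40%). The H3K4me3-overlapping peaks weighted to the scores of the H3K4me3-free peaks gave 7.57%. This contrast is not independent of the rule, because 52.6% of autosomal H3K27me3 peaks themselves overlap H3K4me3, and 530 of the 531 H3K4me3-overlapping peaks with H3K27me3 met an H3K27me3 peak of that kind. With only the top-scoring 50% of H3K4me3 peaks, 5.25% of the H3K9Ac peaks left without H3K4me3 overlapped H3K27me3.

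**Figure D4:**
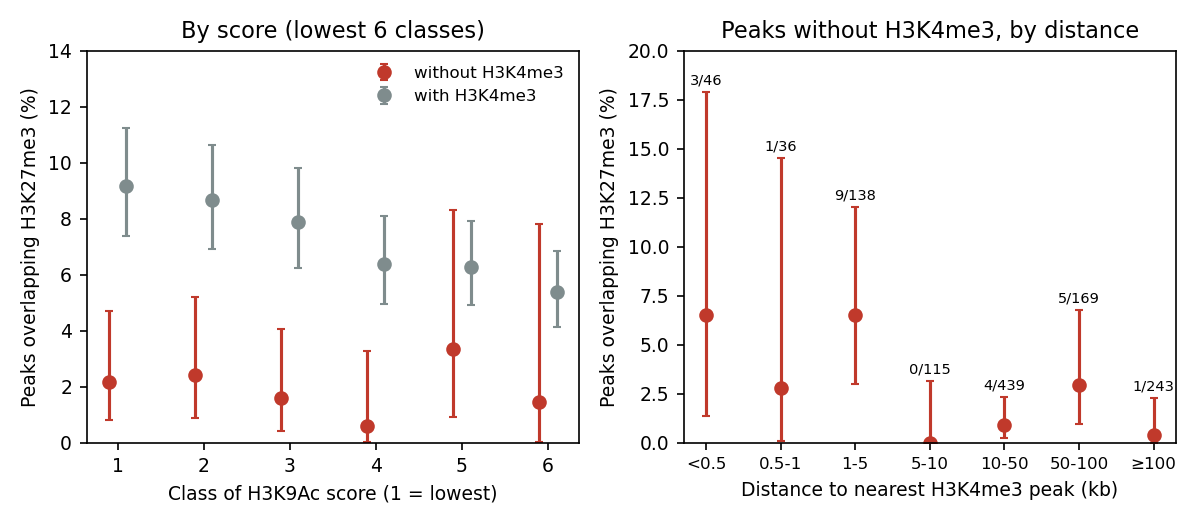
Left, the percentage of H3K9Ac peaks overlapping H3K27me3 in the lowest 6 of 10 classes of score, without (red) and with (grey) H3K4me3. Right, the same percentage for peaks without H3K4me3 by distance to the nearest H3K4me3 peak, with the counts above each point, from 3 of 46 below 0.5 kb to 1 of 243 at 100 kb or more. Bars are exact 95% intervals of counting.

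Overlap with H3K27me3 was more frequent among the H3K4me3-free peaks closest to H3K4me3, though without a steady fall with distance. Of the 220 less than 5 kb from an H3K4me3 peak, 13 (5.91%, 3.18% to 9.89%) overlapped H3K27me3, and of the 966 farther away 10 (1.04%, 0.498% to 1.90%), with intervals that do not overlap. In finer classes the counts were 0 of 115 at 5 to 10 kb and 4 of 439 at 10 to 50 kb. At 50 to 100 kb they were 5 of 169 (2.96%, 0.967% to 6.77%), an interval that meets that of the nearer peaks. Counted in bases, H3K27me3 covered 5.04% of the sequence under the nearer peaks and 0.721% of that under the farther ones, against the 0.546% of the autosomes. Among the nearer peaks 10 of the 13 lay wholly inside an H3K27me3 peak, and among the farther ones 2 of 10. Of the 531 H3K4me3-overlapping peaks with H3K27me3, 216 did. The first 2 counts are small, and the difference was not tested. Of the 23 H3K27me3 peaks met by H3K4me3-free peaks, 4 also overlapped H3K4me3. These 23 acetylated peaks had a median score of 56.95, and each chromosome held 2 to 4 of them. The strongest, at chr8:215526704-215527872, scored 106.94 and lay 4.99 kb from H3K4me3. Farther out, a pair at chr5:280872733-280873769 (75.78) and chr5:280874790-280875775 (56.46) stood 1.02 kb apart and 44.7 kb or more from H3K4me3.

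H3K9me3 was met by 4 H3K4me3-free peaks (0.337%, 0.0920% to 0.861%) and by 30 H3K4me3-overlapping ones (0.281%, 0.190% to 0.401%), and the intervals overlapped. The 4 lay at chr1:695316476-695317276 (score 66.92), chr2:203586598-203587468 (95.19), the tip of chromosome 3 described above (102.8) and chr7:122904927-122905602 (84.02). Those on chromosomes 2 and 7 overlapped H3K27me3 as well, a combination of one active and both repressive marks that was found at 2 H3K4me3-free and 8 H3K4me3-overlapping peaks. The chromosome 2 peak lay 1.17 kb from an H3K4me3 peak of score 51.08, and the chromosome 7 peak 518.5 kb from one of score 67.87. Marks that meet in a list of whole brain can come from different cells.

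H3K4me3-free peaks lay farther from other H3K9Ac peaks than the H3K4me3-overlapping ones did, and few stood within 5 kb of one another. The nearest other H3K9Ac peak was a median of 48617.5 bp away (43875 to 55976 bp), against 31893 bp (30288 to 33525 bp) for H3K4me3-overlapping peaks. Another H3K9Ac peak stood less than 1 kb away for 3.37% of the H3K4me3-free peaks and for 23.5% of the others, where 1 H3K4me3 peak can hold several H3K9Ac peaks. At any distance, the nearest other H3K9Ac peak was itself H3K4me3-free for 260 H3K4me3-free peaks (21.9%, 19.6% to 24.4%). It was H3K4me3-free for 795 H3K4me3-overlapping peaks (7.45%, 6.96% to 7.96%). This difference was not tested. When H3K4me3-free peaks less than 5 kb apart were grouped, with H3K4me3-overlapping peaks left out, 1140 stood alone, 18 groups had 2, 2 groups had 3 and 1 group had 4. The group of 4, at chr1:455598649-455611811, spanned 13.2 kb with scores from 57.0 to 98.1. The groups of 3 were at chr2:521635480-521640900, 40.5 to 45.2 kb from H3K4me3 with scores of 51.8 to 53.3, and at chr1:627344508-627349408, 0.286 to 0.634 kb from H3K4me3 with scores of 54.2 to 63.5.

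Among 3425 autosomal bins of 1 Mb, 815 held an H3K4me3-free peak and 576 of these held exactly 1. Bins richer in H3K4me3 peaks held more of them, with 0.113 per bin where 1 to 2 H3K4me3 peaks started, 0.438 where 6 to 10 did and 1.11 where 21 or more did. H3K4me3-overlapping peaks numbered 0.702, 4.08 and 11.8 per bin over the same bins. As a share of H3K9Ac peaks, the H3K4me3-free ones went from 13.9% (11.1% to 17.0%) to 9.68% and 8.62% (7.39% to 9.98%). Over the 3425 bins the Spearman correlation with the number of H3K4me3 peaks was 0.34 for H3K4me3-free and 0.85 for H3K4me3-overlapping peaks. The rule puts a peak in the overlapping class only where an H3K4me3 peak lies. Its counts, and the shares above, therefore follow the H3K4me3 list partly by definition, and the 2 correlations are a description only. All counts come from the same libraries, and base composition and gene content of the bins were not measured. The 475 bins in which no H3K4me3 peak started held 23 H3K4me3-free peaks and 1 H3K4me3-overlapping peak.

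One bin stood apart. The Mb starting at 455 Mb of chromosome 1 held 14 H3K4me3-free peaks among 35 H3K9Ac peaks, whereas no other bin held more than 7. It also held 27 H3K4me3 peaks, 4 H3K27me3 peaks and no H3K9me3 peak. The 14 scored between 51.73 and 183.37, with 5 at 80 or more, and lay 0.289 to 26.2 kb from H3K4me3. A stretch of 263 kb, chr1:455348729-455611811, delimited after its values were seen, held 12 of them, interleaved with 9 H3K4me3-overlapping H3K9Ac peaks. The strongest of the 12 was a peak of 962 bp at chr1:455414728-455415689 with a score of 123.06, at 9.80 kb from H3K4me3. The 9 H3K4me3 peaks in the stretch scored between 57.2 and 310.6, all under the autosomal median of 344.3, and it held no H3K27me3 peak. The bins next in number, with 7 each, start at 175 Mb of chromosome 2, where only 2 H3K9Ac peaks overlapped H3K4me3 and the H3K4me3-free ones lay a median of 50.9 kb from it, and at 300 Mb of chromosome 8, where 8 did and the median distance was 5.27 kb.

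**Figure D5:**
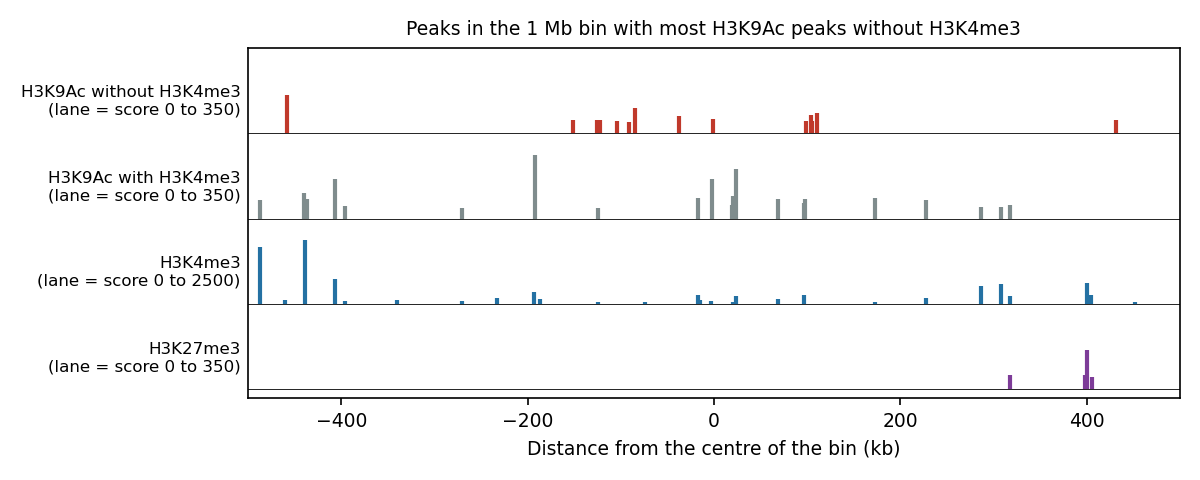
Peaks of the 1 Mb bin of chromosome 1 with the most H3K4me3-free peaks, by distance from the centre of the bin (x axis, kb). Each line is a peak and its height is the authors' score within its own list, scaled per lane as labelled, so heights compare only within a mark. The 14 H3K9Ac peaks without H3K4me3 (red) lie mostly in the middle of the bin, between low H3K4me3 peaks (blue).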

How the data were processed

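For each mark the authors deposited a single peak list that gives a position, a name and a score for every peak. The score was assigned by the authors, per the file headers without a stated formula, and was used only within a list. The submitters' processing notes list CASAVA 1.7, Bowtie 1.1.2 and MACS 1.0.1. Settings, build, control, threshold and pooling are not given in the labels or files used here. Sequencing depth is unknown, since no read counts were at hand.

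Overlap needed 1 shared bp. Distance is the number of bases between peaks. Intervals of shares are exact (Clopper-Pearson) and those of medians come from order statistics, both at 95%. No test was made, because each mark has 1 pooled list. The weighting to scores used 10 classes. The named regions are the 5 strongest, 5 widest and 5 farthest members, the members with both repressive marks, the 5 peaks on each side of the rule, and the 3 groups and 3 bins with most members. The members and lists were chosen with earlier results of these data known. The values were recomputed with 6 other choices of overlap, peaks, joining or chromosomes, and 1 more chosen after the data were seen. The overlap, distance and median procedures were tested on simulated data, and bedtools 2.31.1 gave the same members. Computation used Python 3.11.15, numpy 2.4.6, pandas 2.3.3, scipy 1.17.1 and matplotlib 3.10.9.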

Additional observations from a re-analysis of the deposited data

Results flagged for a closer look

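H3K9Ac peaks outside the autosomes were not part of the comparisons. On X, 28 of 108 H3K9Ac peaks (25.93%, exact 95% interval 18.0% to 35.2%) lacked H3K4me3, above the autosomal share (9.47% to 10.6%). Among peaks under the autosomal median score of 84.52, the share was 31.7% on X (26 of 82, 21.9% to 42.9%) and 17.8% on the autosomes (16.9% to 18.8%), with intervals that do not overlap. Of the 28, 13 (46.4%, 27.5% to 66.1%) overlapped H3K27me3, against 1.94% of the autosomal H3K4me3-free peaks. The share among the other X H3K9Ac peaks was not computed, so this value is not shown to be particular to H3K4me3-free peaks on X. Only 7485 of the 17394 peaks in the H3K27me3 list lie on the autosomes. On unplaced sequence, 25 of 191 (13.09%, 8.65% to 18.7%) lacked H3K4me3, an interval that meets the autosomal one, and none of the 25 overlapped H3K27me3 (upper bound 13.7%).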

How the results depend on the processing

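The 6 features of the H3K4me3-free peaks (their share of H3K9Ac peaks, median score, width and distance to H3K4me3, and shares with H3K27me3 and H3K9me3) were recomputed under 7 settings, and 29 of 42 values stayed within the 95% interval of the value reported. With the top-scoring 50% of H3K4me3 peaks, the share was 25.9%, the median score 63.6, the width 828.5 bp, the distance 62939.5 bp and the H3K27me3 share 5.25%. With the top-scoring 50% of H3K9Ac peaks, the share was 2.16%, the median score 99.1, the width 1211.5 bp and the H3K9me3 share 1.56% (2 of 128 peaks). The score values there follow from the selection by score. Requiring 50% of the shorter peak to be shared gave a share of 10.6% and a distance of 25179 bp, and joining H3K9Ac peaks less than 1 kb apart gave a share of 10.97%. Including X and unplaced sequence gave an H3K27me3 share of 2.91%. Counting H3K4me3 within 500 bp as overlap, or leaving out the 1 Mb bin with most H3K4me3-free peaks (an alternative chosen after seeing the data), moved none of the 6. Elsewhere the cause was not tested. No paired analysis was possible because each mark has a single pooled list with no value per library. The peak threshold limits what can be seen: a region under the lowest score of a list counts as free of that mark.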
